A study of Homo sapiens with 8 samples.

Results

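Ubiquitin-proteasome genes were picked out of the array data by symbol: proteasome subunits and chaperones (PSMA to PSMG), the proteasome maturation protein gene POMP, ubiquitin-conjugating enzymes (UBE2), activating enzymes (UBA1 to UBA7) and the polyubiquitin gene UBB. A gene with several probes was read from its brightest one, by the mean over all arrays. The symbols matched 38 of 14884 named genes. Of these, 23 code for conjugating enzymes or their inactive variants, 4 for activating enzymes (UBA1, UBA3, UBA6 and UBA7), 1 is UBB and 1 is POMP, which makes 29 genes of the conjugation and degradation machinery. The other 9 match by symbol alone. They are the antisense RNAs PSMA3-AS1, PSMB8-AS1, PSMD6-AS2 and PSMG3-AS1, the pseudogenes UBE2DNL, UBE2MP1, UBE2NL and UBE2Q2P1, and PSMC3IP, which codes for a factor of meiotic recombination and not for a proteasome subunit. Among probes with a single gene name in the annotation used here, 0 of 48 protein-coding PSMA to PSMG genes had a probe. So the proteasome subunits were not analysed here, and no contrast of core with regulatory particle was made. What follows therefore concerns the enzymes that attach ubiquitin and its relatives, with POMP as the 1 gene that acts on the proteasome itself.

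Ubiquitin is attached to proteins by a relay. An activating enzyme (E1) charges ubiquitin with ATP, a conjugating enzyme (E2) carries it, and a ligase (E3) brings the carrier to a substrate, after which chains of certain linkages send the substrate to the proteasome. NEDD8 and the interferon-induced modifier ISG15 have relays of their own, with UBA3 in the NEDD8 activating enzyme, UBA7 as the ISG15 activating enzyme and UBE2L6 as the main ISG15 carrier. Monocytic cells use this machinery in NF-κB signalling, antigen presentation and antiviral defence.

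The cells were THP-1, a human monocytic leukaemia line, grown in culture and harvested 5 h after treatment. IPA-3, an allosteric inhibitor of group I p21-activated kinases (PAKs), was given at 6 µg/mL to 2 samples. FRAX-597, an ATP-competitive inhibitor of the same kinases, was given at 2 µg/mL to 2 further samples, and DMSO, the solvent, to 4. RNA of each sample was read on 1 Affymetrix whole-transcript array, and the small number of arrays is 1 limit on precision. Each inhibitor was compared with the controls of its own array set, IPA-3 with DMSO 1 and 2, and FRAX-597 with DMSO 3 and 4, because the distributions of the deposited values fall into 2 sets of 4 arrays. Array medians were 5.51 to 5.55 on the log2 scale in the first set (IPA-3, DMSO 1 and 2) and 6.00 to 6.05 in the second. A level in one set cannot be compared with a level in the other. Doses differ too, so the compounds were compared only through the difference of their changes. THP-1 is a single leukaemic line and stands for no primary monocyte. Of 11 monocyte markers 7 were measured, all of them above the array median on all 8 arrays, and LYZ, CSF1R, CD68 and SPI1 lay in the upper quartile. CD4, CD14 and MPO did not reach the upper quartile on all arrays. No measured T-cell (2), epithelial (3) or fibroblast (1) marker did so either. By the looser limit, the T-cell marker CD8A and the epithelial marker KRT19 also lay above the array median on all 8 arrays.

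None of the 38 genes passed the test after either inhibitor. limma with Benjamini-Hochberg adjustment over all 14884 genes (threshold 0.05) called 0 of 38 after IPA-3, where it called 0.0336% of all genes, 0 of 38 after FRAX-597, where it called 0.155%, and 0 of 38 for the difference of the 2 changes, where it called 0.0134%. At an unadjusted p under 0.05 there were 3 of 38 after IPA-3 (7.89%, against 7.21% of all genes), UBE2H on the higher side (3.1% of all genes) and UBA7 and PSMB8-AS1 on the lower (4.11%). After FRAX-597 there were also 3 (7.89%, against 7.66%), PSMD6-AS2 on the higher side (4.04% of all genes) and UBE2G1 and UBE2NL on the lower (3.61%). Only PSMD6-AS2 was under that limit in the difference (2.63%, against 6.11%). These shares are close to those of all genes for each compound. The arrays of the 2 groups did not overlap for 21 of 38 after IPA-3 (55.3%, against 47.6% of all genes) and for 10 of 38 after FRAX-597 (26.3%, against 30.8%).

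The changes of the 29 enzyme, UBB and POMP genes were small. After IPA-3 they ran from -0.53 (UBA7) to 0.44 (UBE2H) on the log2 scale with a median of -0.03, against a median of -0.02 over all genes. FRAX-597 gave a range of -0.38 (UBE2G1) to 0.34 (UBE2B) and a median of -0.07, again against -0.02 over all genes. A missed threshold does not show that a gene stayed level, so the intervals bear on this more directly. The 95% interval of the change, not adjusted for the number of genes, lay within a 2-fold change either way for 28 of 29 genes after IPA-3 and for 28 of 29 after FRAX-597, against 94.9% and 94.1% of all genes. The exception each time was UBE2L6, whose spread, shared by both sets, takes in the wide replicate gaps of the second set. Within a 1.5-fold change either way lay the intervals of 24 genes after IPA-3 (82.8%, against 70.1% of all genes). After FRAX-597 there were 23 (79.3%, against 71.5%).

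**Figure D1:**
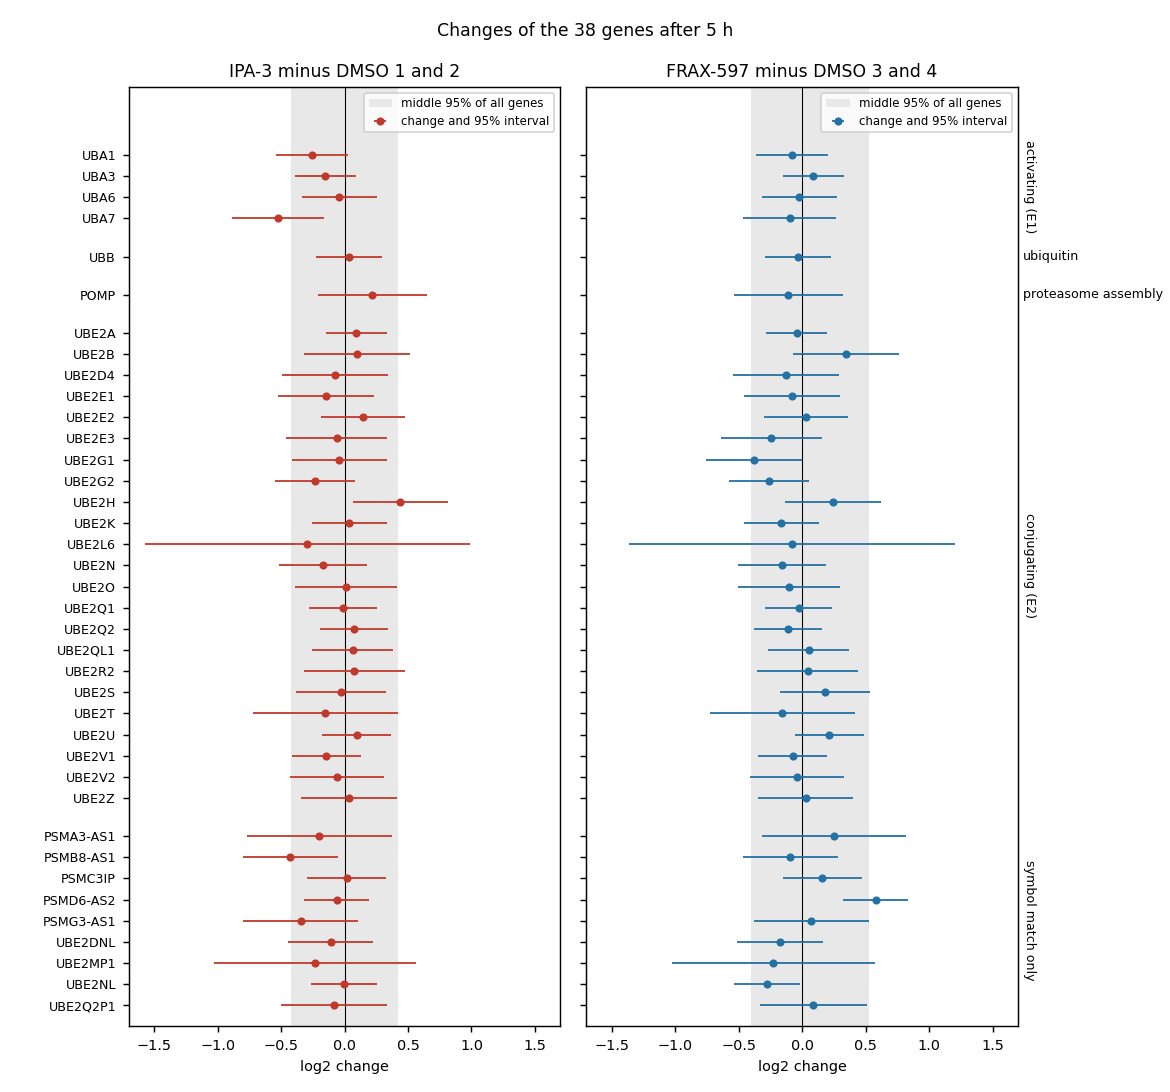
Log2 change of each of the 38 genes after IPA-3 (left, minus DMSO 1 and 2) and FRAX-597 (right, minus DMSO 3 and 4), n = 2 arrays a group. Points are limma estimates, bars their unadjusted 95% intervals, and the grey band the middle 95% of the changes of all 14884 genes; UBE2L6 has the widest bar, and UBA7, UBE2H and PSMB8-AS1 after IPA-3 and PSMD6-AS2 after FRAX-597 lie outside the band.

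Activating enzymes start the relay, and all 4 measured genes were lower on both IPA-3 arrays than on DMSO 1 and 2. Arrays of the 2 groups failed to overlap in that direction for 28.3% of all genes. UBA7 had 8.39 and 8.09 on the IPA-3 arrays, against 8.69 and 8.84 on DMSO 1 and 2. Both IPA-3 values lay under both DMSO values, a change of -0.53 (SE 0.16, unadjusted p = 0.0109, adjusted p = 0.554). UBA1, the main ubiquitin activating enzyme, had 10.74 and 10.47 after IPA-3, against 10.82 and 10.90 in DMSO, a change of -0.26 (SE 0.12, adjusted p = 0.711) that was -0.13 without IPA-3 replicate 2. UBA3 had 9.90 and 9.82 after IPA-3, against 10.02 and 10.00 in DMSO (change -0.15, adjusted p = 0.794). UBA6, which activates ubiquitin and FAT10, differed least, with 9.20 and 9.24 after IPA-3 against 9.25 and 9.26 in DMSO. The median change of the 4 genes was -0.20, which is 0.18 under that of all genes, and none of them passed the test. Relative to all genes the median was -0.098 without IPA-3 replicate 2 and -0.057 with all 4 DMSO arrays pooled as controls.

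With FRAX-597 the activating enzymes lay on both sides of their controls. UBA7 had 9.72 and 9.67 on the FRAX-597 arrays, against 9.95 and 9.63 on DMSO 3 and 4, and the groups overlapped (change -0.10, adjusted p = 0.981). UBA1 had 10.82 on both FRAX-597 arrays, against 10.94 and 10.86 in DMSO (change -0.08, adjusted p = 0.978). UBA3 had 9.83 and 9.73 after FRAX-597, against 9.68 and 9.70 in DMSO, so both arrays lay above their controls (change 0.09, adjusted p = 0.951). UBA3 was thus below DMSO on both IPA-3 arrays and above it on both FRAX-597 arrays. The difference of its 2 changes was 0.24 (unadjusted p = 0.139, adjusted p = 0.894), which did not pass the test. For UBA7 that difference was 0.43 (adjusted p = 0.853), and 0.28 without IPA-3 replicate 2.

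UBE2H carries ubiquitin for the CTLH (GID) ligase and is known for its role in erythroid maturation. It had 7.94 and 8.0005 on the IPA-3 arrays, against 7.54 and 7.52 on DMSO 1 and 2, and 8.73 and 8.24 on the FRAX-597 arrays, against 8.21 and 8.27 on DMSO 3 and 4. The IPA-3 arrays stood apart from their controls and lay close to each other, whereas FRAX-597 replicate 1 was high and replicate 2 lay between its controls. The change was 0.44 after IPA-3 (SE 0.16, unadjusted p = 0.0276, adjusted p = 0.646) and 0.24 after FRAX-597 (adjusted p = 0.84), and neither passed. Without FRAX-597 replicate 1 the FRAX-597 change was -0.00077.

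UBE2G1 and UBE2G2 are related conjugating enzymes that build lysine-48 chains, UBE2G2 in the disposal of misfolded proteins from the endoplasmic reticulum. UBE2G1 had 9.75 and 10.18 on the FRAX-597 arrays, against 10.22 and 10.47 on DMSO 3 and 4. Both FRAX-597 arrays were the lower ones (change -0.38, SE 0.16, unadjusted p = 0.0488, adjusted p = 0.65), and without FRAX-597 replicate 1 the change was -0.17. After IPA-3 it had 9.58 and 9.50, against 9.58 on both DMSO arrays. UBE2G2 had 8.11 and 8.33 after FRAX-597, against 8.46 and 8.50 in DMSO, and 8.23 and 7.96 after IPA-3, against 8.30 and 8.36 in DMSO. It lay below its controls on all 4 inhibitor arrays, with changes of -0.26 (adjusted p = 0.767) and -0.23 (adjusted p = 0.756) for FRAX-597 and IPA-3. These were -0.15 without FRAX-597 replicate 1 and -0.099 without IPA-3 replicate 2.

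UBE2A and UBE2B are the human counterparts of yeast Rad6 and act in the tolerance of DNA damage. UBE2B had 7.07 and 6.54 on the FRAX-597 arrays, against 6.52 and 6.41 on DMSO 3 and 4, with replicate 1 standing well above the other arrays and replicate 2 next to DMSO 3 (change 0.34, SE 0.18, adjusted p = 0.771). Without FRAX-597 replicate 1 this change was 0.0815. UBE2A had 9.04 and 9.15 after IPA-3, against 8.98 and 9.02 in DMSO. This gap, 0.09, was smaller than its standard error of 0.10.

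UBE2N builds lysine-63 chains in signalling to NF-κB, in a dimer with the inactive variant UBE2V1 or UBE2V2. UBE2N had 6.51 and 6.54 after FRAX-597, against 6.67 and 6.70 in DMSO, and 6.41 and 6.52 after IPA-3, against 6.43 and 6.84 in DMSO. The FRAX-597 arrays lay under their controls (change -0.16, adjusted p = 0.918) and the IPA-3 arrays overlapped theirs (change -0.17, adjusted p = 0.857). UBE2V1 had 9.59 and 9.43 after IPA-3, against 9.60 and 9.71 in DMSO, a change of -0.14 (adjusted p = 0.845). Without DMSO 2, the IPA-3 change of UBE2N was 0.037, so its sign rested on that array.

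Among the remaining conjugating enzymes, UBE2T, which serves the Fanconi anaemia pathway, had 9.02 and 8.95 after IPA-3, against 9.13 and 9.14 in DMSO. UBE2S, which lengthens lysine-11 chains for the anaphase-promoting complex, had 7.40 and 7.05 after IPA-3, against 7.29 and 7.21 in DMSO. The IPA-3 arrays of UBE2T lay below their controls and those of UBE2S on either side of them. UBE2K, an enzyme of lysine-48 chains, had 10.47 and 10.46 after IPA-3, against 10.43 on both DMSO arrays. UBE2U was dim: it lay under the lower quartile of all probes on all 8 arrays, with 3.67 and 3.56 after FRAX-597, against 3.35 and 3.45 in DMSO. Over the 23 conjugating genes the median change was -0.01 after IPA-3 and -0.07 after FRAX-597. Both IPA-3 arrays lay above both controls for 6 genes and below them for 6, and with FRAX-597 the counts were 2 above and 3 below. Over all genes 19.3% lay above and 28.3% below after IPA-3, and 13% above and 17.8% below after FRAX-597.

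POMP is the chaperone that guides assembly of the core particle and is consumed as the first substrate of the new proteasome. It had 10.76 and 10.72 on the IPA-3 arrays, against 10.56 and 10.48 on DMSO 1 and 2. The IPA-3 arrays were the higher ones (change 0.22, SE 0.18, adjusted p = 0.852). On the FRAX-597 arrays it had 12.13 and 11.64, against 12.16 and 11.83 on DMSO 3 and 4, and the groups overlapped (change -0.11, adjusted p = 0.984). The difference of the changes was -0.33 (adjusted p = 0.928), and it ran from -0.58 without FRAX-597 replicate 1 to -0.081 without FRAX-597 replicate 2. UBB, which supplies ubiquitin under stress, had 6.87 and 6.76 after IPA-3, against 6.70 and 6.86 in DMSO, and 6.25 and 6.18 after FRAX-597, against 6.22 and 6.28 in DMSO. Its arrays overlapped in both comparisons, with changes of 0.03 for IPA-3 and -0.03 for FRAX-597. The 95% intervals of UBB, -0.22 to 0.29 for IPA-3 and -0.29 to 0.23 for FRAX-597, lie within a 1.5-fold change. UBB shares near-identical ubiquitin repeats with other genes, so which transcripts its probe reads is uncertain.

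**Figure D2:**
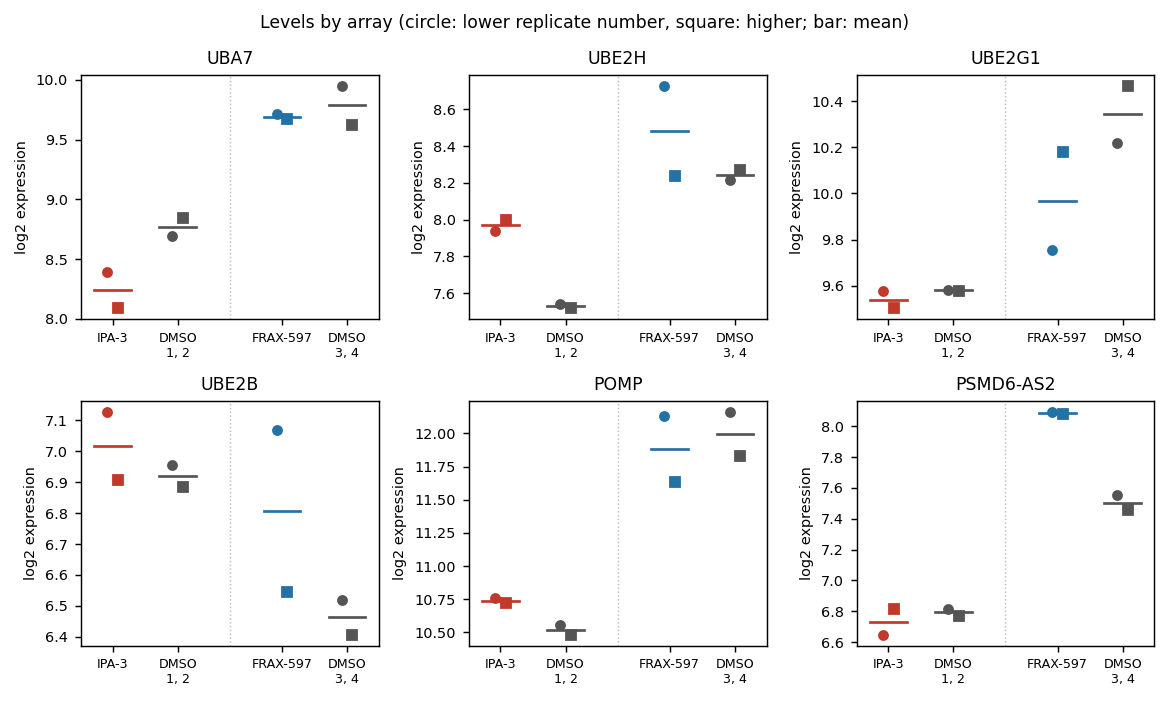
Deposited log2 expression of 6 genes on each of the 8 arrays, with bars at group means (n = 2) and a dotted line between the 2 array sets, whose levels cannot be compared. UBA7 is lower on both IPA-3 arrays than on DMSO 1 and 2, UBE2H higher, and PSMD6-AS2 higher on both FRAX-597 arrays than on DMSO 3 and 4.

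The lowest p of the 38 genes belonged to an antisense RNA and not to an enzyme. PSMD6-AS2 is a non-coding transcript named for its place opposite PSMD6, a lid subunit gene. It had 8.09 and 8.08 on the FRAX-597 arrays, against 7.55 and 7.45 on DMSO 3 and 4. These 4 arrays split cleanly by group, with replicate gaps far smaller than the gap between groups (change 0.58, SE 0.11, unadjusted p = 0.000901, adjusted p = 0.192). After IPA-3 it had 6.65 and 6.81, against 6.82 and 6.77 in DMSO, and the groups overlapped. The difference of the changes was 0.64 (adjusted p = 0.555). It ranked 70 by p among all genes after FRAX-597. When the arrays of the second set were paired by their values (DMSO 3 with FRAX-597 1, DMSO 4 with FRAX-597 2), the adjusted p was 0.0419, in a fit that called 1.36% of all genes. These pairs were picked from the values that were then tested, so the p-values of that fit may be too small. With the second set fitted alone its adjusted p was 1, in a fit that called 0 of all genes. Whether the probe separates this RNA from transcripts of the other strand was not tested.

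PSMB8-AS1 is named for its place opposite PSMB8, an immunoproteasome subunit gene, and had 7.69 and 7.25 on the IPA-3 arrays, against 7.78 and 8.01 on DMSO 1 and 2. Both IPA-3 arrays were the lower ones (change -0.43, SE 0.16, unadjusted p = 0.0311, adjusted p = 0.654), and without IPA-3 replicate 2 the change was -0.21. PSMA3-AS1 (7.77 and 7.57 after IPA-3, against 7.89 and 7.84 in DMSO) and PSMG3-AS1 (6.28 and 6.12 after IPA-3, against 6.64 and 6.45 in DMSO) lay on the same side. For these antisense RNAs the changes were -0.20 (adjusted p = 0.923) and -0.35 (adjusted p = 0.754), and that of PSMA3-AS1 was -0.098 without IPA-3 replicate 2. The pseudogene UBE2NL, a retrocopy of UBE2N, had 5.37 and 5.15 after FRAX-597, against 5.55 and 5.52 in DMSO (change -0.28, SE 0.11, adjusted p = 0.616), and without FRAX-597 replicate 2 the change was -0.17. UBE2N and UBE2NL may share probe sequence, as may UBE2Q2 and UBE2Q2P1, so their values are uncertain.

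The ISG15 relay was looked at as a group after its values had been seen. UBE2L6 had 6.27 and 6.18 on the IPA-3 arrays, against 6.47 and 6.56 on DMSO 1 and 2. In the second set it had 7.77 and 6.35 on the FRAX-597 arrays, against 7.90 and 6.38 on DMSO 3 and 4. FRAX-597 replicate 1 and DMSO 3 were thus high and FRAX-597 replicate 2 and DMSO 4 low, a split that runs across the treatment. The replicates of UBE2L6 differed by 1.41 within FRAX-597 and by 1.53 within DMSO, and 0.443% of all genes had a DMSO 3 to DMSO 4 gap that wide. The change was -0.08 after FRAX-597, with an interval of -1.36 to 1.20, and -0.29 after IPA-3, with an interval of -1.57 to 0.99. The fit shares 1 spread per gene over both sets, so the split of the second set widens the IPA-3 interval. Standard deviations were 0.060 (IPA-3) and 0.062 (DMSO 1 and 2), against 0.998 (FRAX-597) and 1.08 (DMSO 3 and 4). In limma with the first set fitted alone, the adjusted p of UBE2L6 was 0.256.

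Other interferon-induced genes of the relay split the same way. ISG15 itself had 8.85 and 7.34 after FRAX-597, against 9.14 and 7.72 in DMSO. HERC5, the main ISG15 ligase in human cells, had 9.06 and 6.59 after FRAX-597, against 8.997 and 6.91 in DMSO. USP18, which removes ISG15, had 11.47 and 9.62 after FRAX-597, against 11.60 and 9.62 in DMSO. In each of them the first-numbered FRAX-597 array and DMSO 3 were the high pair, and HERC6 and the ubiquitin ligase TRIM21 showed the same order. UBA7 had much narrower gaps: its FRAX-597 replicates differed by 0.05 and DMSO 3 and 4 by 0.33. PSMB8-AS1, with gaps of 0.05 within FRAX-597 and 0.03 within DMSO, did not show that order. What set these arrays apart was not tested, and the FRAX-597 comparison of UBE2L6 rests on means of 1 high and 1 low array.

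In the first set these genes, grouped after their values were seen, were lower on both IPA-3 arrays than on DMSO 1 and 2, as were 28.3% of all genes. HERC5 had 6.60 and 6.63 after IPA-3, against 7.19 and 7.37 in DMSO. USP18 had 7.97 and 7.93 after IPA-3, against 8.39 and 8.64 in DMSO. TRIM21 had 8.52 and 8.48 after IPA-3, against 8.97 and 9.0016 in DMSO. Each of these 3 genes had IPA-3 arrays that lay close to each other. None of the 8 genes (UBA7, UBE2L6, ISG15, HERC5, HERC6, TRIM21, USP18 and PSMB8-AS1) passed the test after IPA-3, with adjusted p from 0.554 to 0.983. None passed with the first set fitted alone either, where the adjusted p ran from 0.0827 (HERC5) to 0.487 (HERC6).

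**Figure D3:**
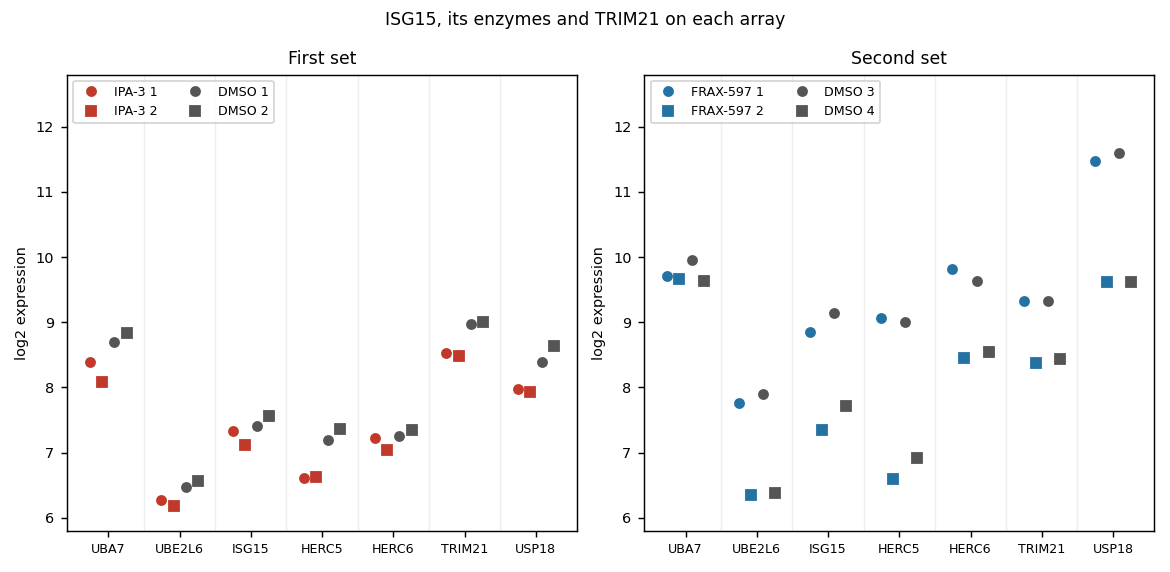
Deposited log2 expression of ISG15, its activating (UBA7) and conjugating (UBE2L6) enzymes, HERC5, HERC6, USP18 and TRIM21 on the arrays of the first set (left) and of the second set (right). Each point is 1 array; in the second set FRAX-597 1 and DMSO 3 lie together well above FRAX-597 2 and DMSO 4 for the genes shown other than UBA7, whose 4 arrays lie close together.

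Promoter letters are shown for 3 genes with the wide split between arrays (ISG15, HERC5 and UBE2L6) and for PSMB8-AS1, which lacked it, because they differ in whether their start regions hold a motif of interferon-induced genes. RefSeq promoter windows (GRCh38.p14, 250 bases before to 50 after the start site) were found for 29 of the 38 genes. The letters searched on both strands were GAAA, any 2 letters, GAAA, the core of the interferon-stimulated response element. They occur in 3.57% of all 35116 windows and in 1 of the 39 windows of the 29 genes, a window of PSMB8-AS1. Capitals mark the matches, which are reverse complements in HERC5 and overlap where the capitals run past 10 letters.
ISG15, chr1:1013354-1013429, plus strand: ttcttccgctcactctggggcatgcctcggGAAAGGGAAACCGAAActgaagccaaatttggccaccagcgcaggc
HERC5, chr4:88456964-88457084, plus strand: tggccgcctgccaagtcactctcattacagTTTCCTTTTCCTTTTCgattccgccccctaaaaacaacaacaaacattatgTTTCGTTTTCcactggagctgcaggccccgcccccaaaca
PSMB8-AS1, chr6:32844032-32844061, plus strand: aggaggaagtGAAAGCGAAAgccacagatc
UBE2L6, chr11:57567936-57568035, minus strand: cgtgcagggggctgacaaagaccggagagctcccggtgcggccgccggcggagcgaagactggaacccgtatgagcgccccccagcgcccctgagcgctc
The UBE2L6 stretch, the 100 bases before its start site, holds no match, and neither does the rest of its window. UBE2L6 followed the same arrays as ISG15 and HERC5, which hold matches, and PSMB8-AS1, which holds 1, did not. TRIM21, which also followed these arrays, holds matches at positions 17 and 23 relative to its start site. HERC6 and USP18, which followed these arrays too, were searched as well and gave no match. Whether a promoter window was found for them is not known, so their lack of a match cannot be read. Whether the motif goes with the split was not tested. A match is a run of letters and not a shown binding site. A second motif, TGACNNNGC of the antioxidant response element, was found in 13.3% of all windows and in 6 of the 39 windows of the 29 genes. These belong to 5 genes, PSMA3-AS1, UBB, UBE2E3, UBE2K and UBE2Q2.

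The split between replicates reached beyond the interferon-induced genes. Among the 29 genes, the difference FRAX-597 1 minus FRAX-597 2 had the same sign as DMSO 3 minus DMSO 4 in 21 (72.4%, against 67% of all genes), with a correlation across genes of 0.76, which was 0.587 without UBE2L6 and 0.655 over all genes. In the first set, IPA-3 1 minus IPA-3 2 had the sign of DMSO 1 minus DMSO 2 in 15 of the 29 (51.7%, against 46.4% of all genes), with a correlation of 0.107. Genes of 1 array share its RNA and hybridisation, so these values describe the arrays. UBE2T, for example, was lower on FRAX-597 1 and DMSO 3, with 9.46 and 10.21 after FRAX-597, against 9.78 and 10.21 in DMSO. The setting without UBE2L6 was chosen after seeing the data.

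**Figure D4:**
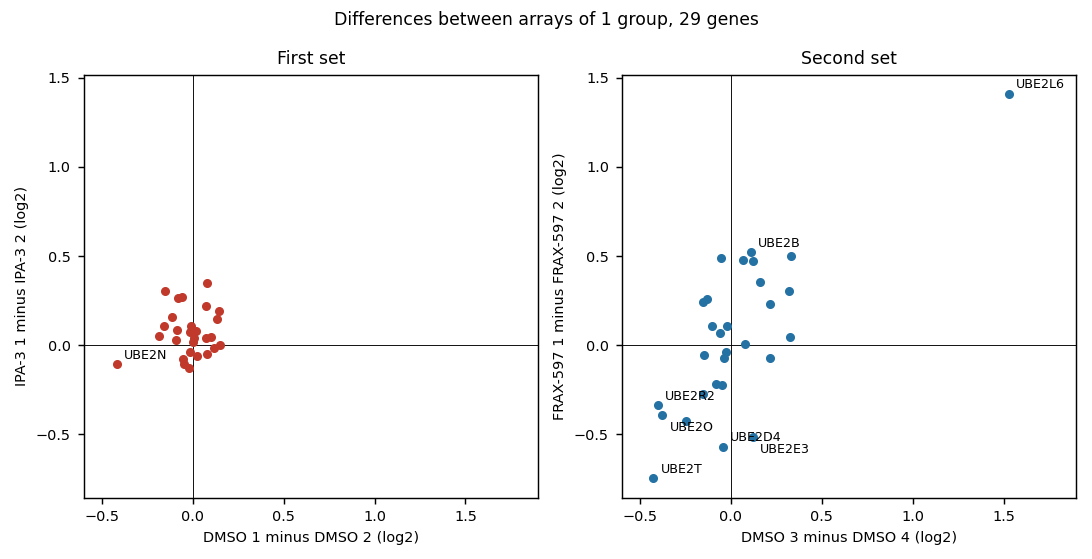
Difference between the replicates of the inhibitor group (vertical, log2) against the difference between the replicates of the DMSO group (horizontal, log2) for the 29 genes, in the first set (left) and the second (right). In the second set the points run from lower left to upper right with UBE2L6 at the far corner, while in the first they gather round 0.

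Genes that work beside the members were counted over 8 lists: ubiquitin-like precursors, proteasome-bound factors, NRF1 control of proteasome genes, shuttle receptors, partner enzymes outside the symbol rule, cullin-RING and APC/C ligases, single-chain ligases and deubiquitinases. Of 143 listed genes 104 were measured, and limma called 0 of them after IPA-3, after FRAX-597 or in the difference of changes. At an unadjusted p under 0.05 there were 5 higher and 2 lower after IPA-3 (6.73% of the measured genes, against 7.21% of all genes), and 2 higher and 4 lower after FRAX-597 (5.77%, against 7.66%). The median change over the lists was -0.04 after IPA-3 and -0.02 after FRAX-597.

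SQSTM1, the autophagy receptor p62 that also binds KEAP1, had 8.51 and 8.52 on the IPA-3 arrays, against 7.50 and 7.46 on DMSO 1 and 2. The groups stood apart by about 1 log2 unit (change 1.04, SE 0.24, adjusted p = 0.478), and with FRAX-597 they overlapped, at 9.18 and 8.37 against 8.60 and 8.29 in DMSO. KEAP1, the adaptor that brings NRF2 to a CUL3 ligase, had 9.95 on both IPA-3 arrays, against 9.33 and 9.31 in DMSO (change 0.63, SE 0.13, adjusted p = 0.402). MAFG, a small MAF partner of NRF1 and NRF2, had 8.63 and 8.46 after IPA-3, against 7.99 and 8.05 in DMSO (change 0.52, adjusted p = 0.472). After FRAX-597 it had 8.98 and 8.80, against 8.57 and 8.71 in DMSO (change 0.25, adjusted p = 0.739), and these arrays too were the higher ones. NFE2L2, the NRF2 gene, lay above its controls on the arrays of both inhibitors. Its changes were 0.51 for IPA-3 (adjusted p = 0.751) and 0.60 for FRAX-597 (adjusted p = 0.692). AKIRIN2, which brings proteasomes into the nucleus, had 9.94 and 10.04 after IPA-3, against 9.23 and 9.35 in DMSO (change 0.70, adjusted p = 0.604). The proteasome-bound deubiquitinase USP14 had 10.80 and 10.81 after IPA-3, against 10.45 and 10.33 in DMSO (change 0.42, adjusted p = 0.654). With FRAX-597 the arrays of KEAP1, AKIRIN2 and USP14 overlapped their controls. SQSTM1, KEAP1, MAFG, AKIRIN2 and USP14 were the 5 genes with an unadjusted p under 0.05 on the higher side after IPA-3. The lower side held ATXN3, given below, and CDC23, a subunit gene of the APC/C. CDC23 had 9.44 and 9.20 after IPA-3, against 9.61 and 9.74 in DMSO (change -0.36, adjusted p = 0.625). SQSTM1 and KEAP1 passed under some other settings: SQSTM1 had an adjusted p of 0.0185 when the first set was fitted alone and 0.0243 with the second-set pairs as a block, and KEAP1 had 0.0405 with that block but 0.0562 with the first set alone. Those fits called 0.645% and 0.484% of all genes after IPA-3. The pairs of the block were picked from the values, so its p-values may be too small.

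After FRAX-597, the ligase gene UBE3D had 6.90 and 6.85, against 7.34 and 7.44 in DMSO (change -0.51, SE 0.12, adjusted p = 0.243). CUL1, the scaffold of SCF ligases, had 10.41 and 10.09, against 11.16 and 10.63 in DMSO, with both FRAX-597 arrays lower (change -0.65, SE 0.19, adjusted p = 0.407, 0.0332 with the pairs as a block and 1 with the second set fitted alone). Without DMSO 3 the change of CUL1 was -0.38. NGLY1 (change -0.28, adjusted p = 0.607) and ANAPC1 (change -0.25, adjusted p = 0.615) were also lower at an unadjusted p under 0.05. BIRC2 was higher at that limit (change 0.25, adjusted p = 0.65). ATXN3, a deubiquitinase of the VCP pathway, had 7.51 and 7.66 after FRAX-597, against 6.97 and 7.19 in DMSO, and 7.80 and 7.62 after IPA-3, against 7.96 and 8.12 in DMSO. ATXN3 lay above its controls with FRAX-597 (change 0.51, adjusted p = 0.35) and below them with IPA-3 (change -0.33, adjusted p = 0.669). The difference of its changes was 0.84 (SE 0.19, unadjusted p = 0.00261, adjusted p = 0.555), and that of KEAP1 was -0.72 (adjusted p = 0.596). Neither passed the test.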

How the data were processed

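The authors deposited 1 table of log2 expression per probe and array, made with Affymetrix Expression Console and Transcriptome Analysis Console, per the submitters' processing notes; the summarisation method, versions and genome build are not given in the sources used here. Of 53617 probes, 16098 carried a single gene name in the platform annotation (14884 genes, 779 of them with several probes). The other 37519 stayed out. They had no gene name, and any probe named for several genes was left out with them. The deposited log2 values were used unchanged, without a filter on dim probes.

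Changes were fitted with limma 3.58.1 (R 4.3.3) over all 8 arrays in 4 groups that share 1 spread per gene, with 4 residual degrees of freedom, and p-values were adjusted by Benjamini-Hochberg over all genes. A wide replicate gap in 1 set therefore also widens the interval of that gene in the other set. The labels do not say that arrays came from separate cultures, so the p-values may reflect technical spread alone. The symbol rule, the gene lists and the tests were chosen with earlier results of these data known. Named genes were drawn from the 3 members with the smallest unadjusted p in each class and direction. A fixed list (POMP, UBA1, UBB, UBE2L6, UBE2N among those measured) and up to 2 genes per pathway list and comparison were added. Some genes picked by this rule are not described, and further members are described to show their values. The classes for core and regulatory subunits held no subunit gene. PSMB8-AS1 had 3 probes with identical values.

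The labels give no replicate number shared between groups. Deviations within groups correlated across the 14884 genes at 0.655 between DMSO 3 minus 4 and FRAX-597 1 minus 2, and at -0.0586 in the first set. Alternatives covered normalization, controls, the block, probe choice, prior and single arrays. The script was tested on simulated data.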

Additional observations from a re-analysis of the deposited data

Results flagged for a closer look

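UBE2L6 on DMSO 3 stood apart from the other DMSO arrays. Its level there was 7.90 on the log2 scale and the nearest other DMSO value was 6.56, so the gap took 0.88 of the range of the 4 arrays, above Dixon's 95% critical value for 4 values. UBE2L6 was the only 1 of 38 genes beyond that value. Chance passes it in about 1 of 20 groups of values from 1 source, a rate that does not hold here. The 4 DMSO arrays come from both array sets, and a gap between the sets widens the range, so the count cannot be judged. FRAX-597 replicate 1, with 7.77, was nearly as high as DMSO 3. What the 2 arrays share was not tested.

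UBA3 lay on opposite sides of DMSO with the 2 inhibitors, above it on both FRAX-597 arrays and below it on both IPA-3 arrays. The difference of its changes was 0.24 (limma, adjusted p = 0.894), so the test did not call it. UBA3 was the only 1 of the 38 genes with such a split, which 880 of all 14884 genes had.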

How the results depend on the processing

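The count of members called was 0 for IPA-3 and for the difference of changes under every alternative run, and 0 for FRAX-597 except with the replicate block (DMSO 3 paired with FRAX-597 1, DMSO 4 with FRAX-597 2), where it was 1, PSMD6-AS2. The labels share no replicate number, so the block comes from the values and its p-values may be too small. Class medians relative to all genes moved after IPA-3. For the conjugating genes the median was 0.053 after quantile normalization and -0.052 with all DMSO arrays pooled. For the activating genes it was -0.15 after quantile normalization, -0.057 with pooled controls and -0.21 with every probe as its own feature, and their difference between compounds was -0.06 with pooled controls. Leaving out 1 array gave -0.0021 to 0.051 for the conjugating and -0.26 to -0.098 for the activating genes. Pooling the controls sets arrays of one set against those of the other and turned the sign for several genes. After IPA-3 the values were 0.00693 for UBA3, -0.52 for POMP, -0.55 for UBE2A, -0.023 for UBE2E2 and 0.15 for ATXN3. After FRAX-597 they were -0.071 for UBA3, 0.41 for UBA7, 0.63 for POMP, 0.0040 for UBE2G1, 0.23 for UBE2L6 and 0.11 for NGLY1. For the difference they were -0.077 for UBA3, 1.15 for POMP, 0.43 for UBE2G1, -0.12 for ATXN3 and 0.062 for UBE3D. Leaving out 1 array changed the sign within these ranges: -0.045 to 0.11 for UBB and -0.38 to 0.037 for UBE2N after IPA-3, and after FRAX-597 -0.26 to 0.066 for UBA7, -0.36 to 0.14 for POMP, -0.84 to 0.68 for UBE2L6, -0.00077 to 0.49 for UBE2H and -0.065 to 0.0050 for UBB. Of 858 gene values under other settings, 827 kept direction and side of the threshold, 26 changed sign and 5 gained a call. Much of this was fixed in advance. The log2 change cannot move with another prior, the block, a set fitted alone or an array of the other set left out. None of these genes was called in the main fit, so none could lose a call. Kept values include near losses with pooled controls after FRAX-597, such as -0.0056 for CUL1 and 0.026 for ATXN3. Leaving out 1 array moved 24 of 51 gene results by over 1.5 times. With 2 arrays a group and dim probes such as UBE2U, small changes could not be resolved.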

Other observations

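Levels of the 29 genes differed between the array sets as most genes did. DMSO 3 and 4 minus DMSO 1 and 2 had a median of 0.62 over these genes, against 0.48 over all genes, and ran from -0.53 for UBB to 1.48 for POMP. The pseudogene UBE2MP1 had a gap of -1.82, with 7.38 and 6.77 on DMSO 3 and 4, against 8.82 and 8.98 on DMSO 1 and 2. Array medians differ between the sets, so these gaps describe the array sets, and their source was not tested.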
